A study of Sus scrofa with 24 samples.

Results

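The 41 genes described here encode enzymes that activate fatty acids to acyl-CoA, move acyl groups to and from carnitine, break acyl-CoA down in mitochondria or peroxisomes, or release the free acid again. They were chosen by name from the array annotation. The rule took symbols beginning with ACAD, ACAA, ACOX, ACSL, ACSS, HADH or ETF, ACOT with a digit, ECH with a digit, S or D, the names ACAT2, ECI1 and ECI2, and CPT2, CRAT and DECR1. Of 6765 symbols on the array, 41 met the rule, through 59 probe sets. For the 15 genes with several probe sets, the brightest probe set, by its mean of the 24 arrays, stood for the gene. By textbook location 23 of the genes act in mitochondria, 6 in peroxisomes (ACAA1, ACOT8, ACOX2, ACOX3, ECH1 and ECI2) and 12 in the cytosol, on other membranes or in several places.

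RNA from the longissimus dorsi, a muscle of the back, was hybridised to 24 Affymetrix Porcine Genome Arrays. The pigs were German Landrace (DL) and Pietrain (Pi), taken at 4 stages, namely 35, 63 and 91 days after conception (dpc, days post conception) and adulthood, which makes 8 groups of 3 RNA pools named a, b and c. The labels leave 2 doubts: titles of the 35 dpc pools carry a letter K that is not explained, and a free-text field calls the fetal samples peripubertal, against their stage labels. No agent, transgene or edited allele is named for any group. How many animals went into a pool, of which sex, and how old the adults were is not stated in the sources used here, nor whether the pools of a group hold separate animals. A p-value therefore weighs a difference only against pool-to-pool spread, which may be in part technical.

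Long-chain fatty acids are trapped in the cell as acyl-CoA by synthetases and enter mitochondria as acylcarnitine. Each round of mitochondrial beta-oxidation runs through a dehydrogenase, a hydratase, a hydroxyacyl dehydrogenase and a thiolase, and electrons leave through the electron transfer flavoprotein to ubiquinone. Peroxisomes start the same chain with an oxidase and handle very long, branched and some unsaturated acids, which they shorten without completing. Skeletal muscle oxidises fatty acids mainly in mitochondria, more in slow than in fast fibres, and the capacity for it is known to grow around birth, when milk fat becomes a main fuel.

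Values are log2 intensities per probe set, as deposited, and a difference of 1 is a 2-fold change if the log base is 2, as the range of the values implies. Because all arrays were given the same distribution of values before deposit, each change is measured relative to the rest of the array. In bulk tissue, fewer cells of a type and less RNA per cell cannot be told apart. The background ceiling of an array was set as the highest of 23 controls with no target, and 21.3% to 32.2% of the 23999 probe sets did not exceed it. Of the 41 genes, 34 lay above it on all 24 arrays, 6 on some and ACAD10 on none. All 9 measured markers of skeletal muscle lay above it on every array, and their summed signal rose from 15.46 to 15.78 at 35 dpc to 18.40 to 18.46 in adults. Neural markers, of which 8 of 12 were measured, summed to 15.23 to 15.54 at 35 dpc and to between 5.31 and 7.21 at the later stages. Liver markers, all 9 measured, summed to 15.54 in adult Pi pool b against 9.04 and 9.78 in the other adult Pi pools, and to 13.13 to 15.10 in the DL pools at 63 dpc against 11.39 to 11.59 in Pi. The Pi sum at 63 dpc was nearly all APOA1 (11.55, 11.57 and 11.37). Pi minus DL differences of the 9 liver markers at 63 dpc ran from -10.76 (SERPINA1) to -0.22 (APOA1), with a median of -5.87. In the adult DL pools, with sums of 10.00 to 11.21, 6 of the 9 exceeded background in all 3 pools. Adipocyte markers, 6 of 8 measured, summed to 4.79 to 5.69 at 35 dpc and to 10.20 to 11.60 at 91 dpc and in adults. After 35 dpc that sum was nearly all FABP4, which held 11.29, 11.56 and 10.93 in the 91 dpc DL pools, where the sums were 11.35, 11.60 and 10.96. The difference between 3' and 5' GAPDH controls, a sign of RNA integrity, was -0.61 to -0.39 in adults and 0.25 to 1.31 in the fetal pools. The pools of a group also spread more in adults, with a residual SD per array of 0.646 to 0.852 against 0.287 to 0.378 at 35 dpc. What part any of these play in the results below was not tested, except where a value without the pools or with the covariate is given. The fit without the 3 pools richest in liver transcripts leaves pool b as the only DL pool at 63 dpc. Its liver sum, 13.13, also exceeded those of Pi, so that fit does not free the 63 dpc DL group of liver transcripts.

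Of the 40 genes above background on at least 1 array, the stage mean was highest in adults for 27, at 91 dpc for 6, at 63 dpc for 2 and at 35 dpc for 5. Of all tested probe sets 44.7% had their highest mean in adults, 13.9% at 91 dpc, 13.1% at 63 dpc and 28.3% at 35 dpc. All 6 peroxisomal genes and 15 of 22 mitochondrial genes above background had their highest mean in adults. The 5 genes with their highest mean at 35 dpc, ACAT2, ACOT7, ACSL3, ACSL4 and ACSL6, all belong to the 12 that act elsewhere. Over the 3 steps between successive stages, 28 genes were called only as higher, 6 only as lower, 4 in both directions and 3 (ACAD10, ACOT8 and CPT2) never. The share of all probe sets with each of these patterns was not counted, so how unusual they are is not known. By the brightest probe set, rises in all 3 steps were called for 13 genes: ACAD8, ACADVL, ACOT6, ACOT13, ACOX2, ACSL1, ACSS2, ACSS3, ECH1, ECI1, ETFB, ETFDH and HADHB. The share of all probe sets called so was not counted either. A further probe set of ACAD8, ACADVL, ACOT6, ACOT13, ACOX2, ACSS3 and HADHB was not called higher at every step. These steps average both breeds, and in DL alone the first was -0.18 ± 0.24 for ECH1 and -0.16 ± 0.17 for ACOT6.

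**Figure D1:**
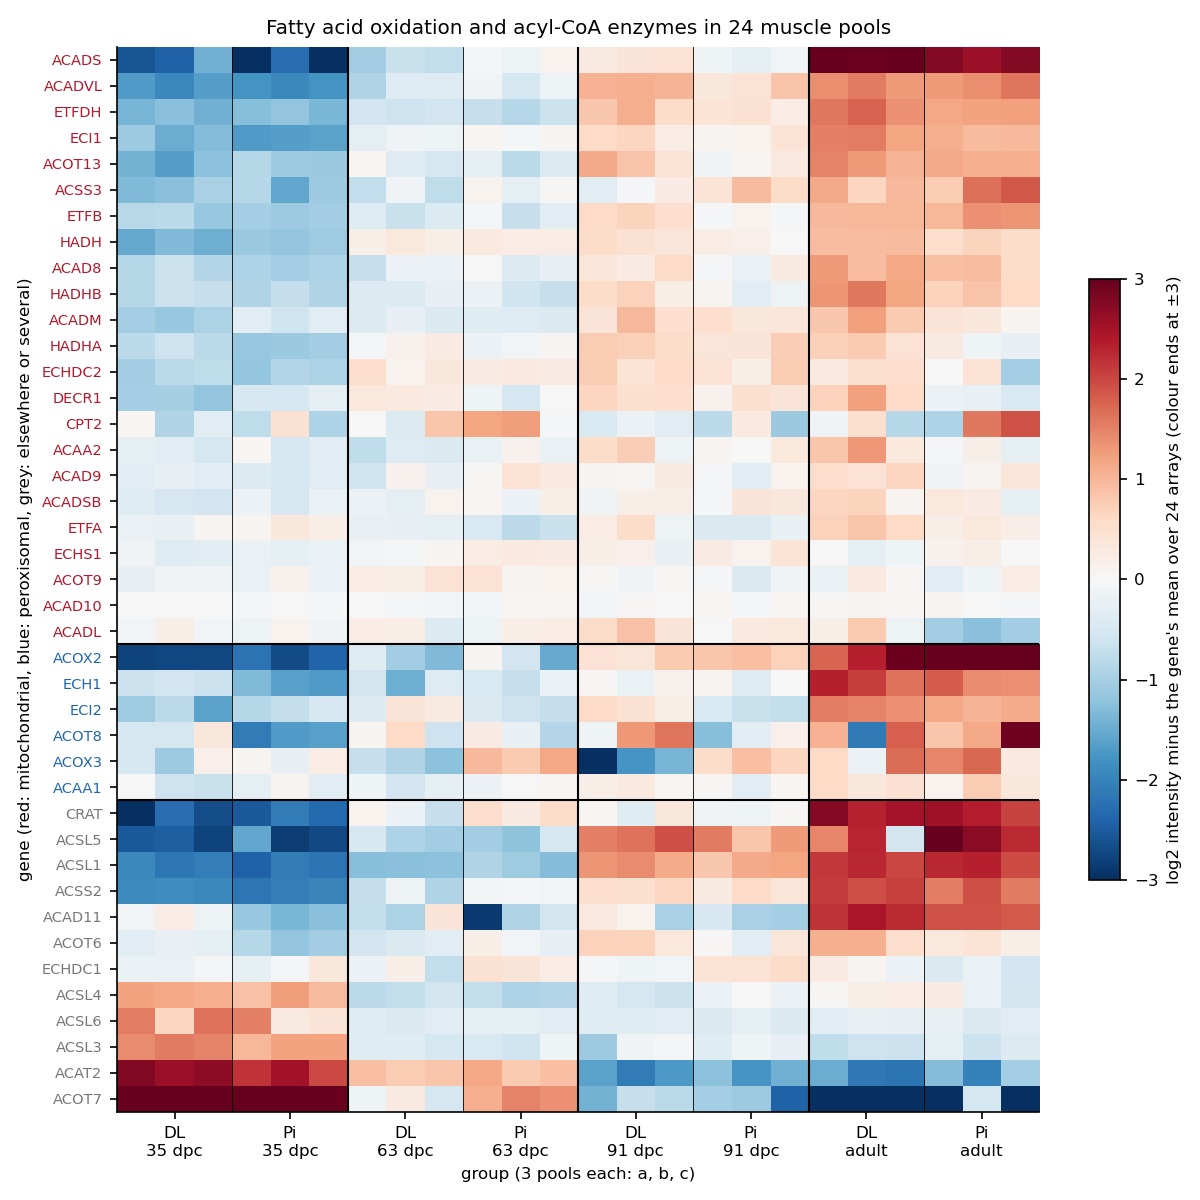
Each row is 1 of the 41 genes and each column 1 of the 24 RNA pools. Colour gives the log2 intensity minus the gene's mean over the 24 arrays, from blue (lower) to red (higher), with colours ending at -3 and 3. Mitochondrial genes (red names) and peroxisomal genes (blue names) run from blue at 35 dpc to red in adults in most rows, relative to the other probe sets on each array. ACSL3, ACSL4, ACSL6, ACAT2 and ACOT7, at the foot, run the other way from 35 dpc.

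The first step set 63 dpc against 35 dpc, averaged over both breeds. Higher values were called for 26 of the 41 genes (63.4%), where 22.3% of all tested probe sets were called higher, and lower values for 6 (14.6%), where 22% of all were called lower. The median log2 change of the 41 genes was 0.46, and that of all probe sets 0.004. By location, 18 of 23 mitochondrial genes rose and 1 fell, 3 of 6 peroxisomal genes rose and none fell, and 5 of the other 12 rose and 5 fell. These directions are relative to the other probe sets. When arrays were instead made equal on their hybridisation controls, the array-wide median became -0.81, 7 of the 41 genes were called higher and 19 lower, and each gene kept its distance from that median. The share of all probe sets called under that scaling is not given, and the shares above do not apply to it. Beside each value of this step stand the marker lists. All 9 skeletal muscle markers rose, with a median of 3.08 and a summed signal from 15.46 to 15.78 at 35 dpc to 17.58 to 17.64 at 63 dpc. Of 8 neural markers 7 fell, with a median of -9.47. Of 6 adipocyte markers 1, FABP4, rose, by 6.50 ± 0.14, and the sum went from 4.79 to 5.69 to 8.81 to 9.75. The part of these markers in the step was not tested.

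Between 63 and 91 dpc 20 of the 41 genes rose (48.8%), where 8.88% of all probe sets were called higher, and 3 fell (7.3%), where 9.4% were called lower. The median log2 change was 0.40 for the 41 genes and 0.002 for all probe sets. Of the mitochondrial genes 13 rose and ACOT9 alone fell, of the peroxisomal genes ACOX2 and ECH1 rose and none fell, and of the other 12 genes 5 rose and 2 fell. With hybridisation control scaling the array-wide median was -0.15 here, and left 11 genes called higher and 3 lower. Without the 3 pools richest in liver transcripts, adult Pi pool b and 63 dpc DL pools a and c, 16 rose and 2 fell.

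In the last step, from 91 dpc to adult muscle, 23 of the 41 genes rose (56.1%), where 30.8% of all probe sets were called higher, and 4 fell (9.8%), where 26.6% were called lower. The median log2 change was 0.47, against 0.059 for all probe sets. Of the mitochondrial genes 12 rose and 2, ACADL and HADHA, fell, of the peroxisomal genes 5 of 6 rose, and of the other 12 genes 6 rose and 2 fell. With the 3'-5' GAPDH difference as a covariate, 7 of the 41 genes were called higher and 0 lower, in a model where adults and fetuses do not overlap in that covariate, so that the stage and the RNA measure cannot be told apart. The 7 included ACADS, ACOX2, ACOX3, ACSL1, CRAT and ECH1, while ACADVL, ECI2, ETFB, ETFDH, HADH and HADHB kept their direction without a call, and ACOT6 and ETFA changed sign (-0.21 and -0.15). Scaling to hybridisation controls gave 19 higher and 8 lower with a median of all probe sets of -0.14, and array weights per group 19 higher and 2 lower. The 4 calls of lower became 2 without DL adult pool c, Pi 91 dpc pool c or Pi adult pool c.

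**Figure D2:**
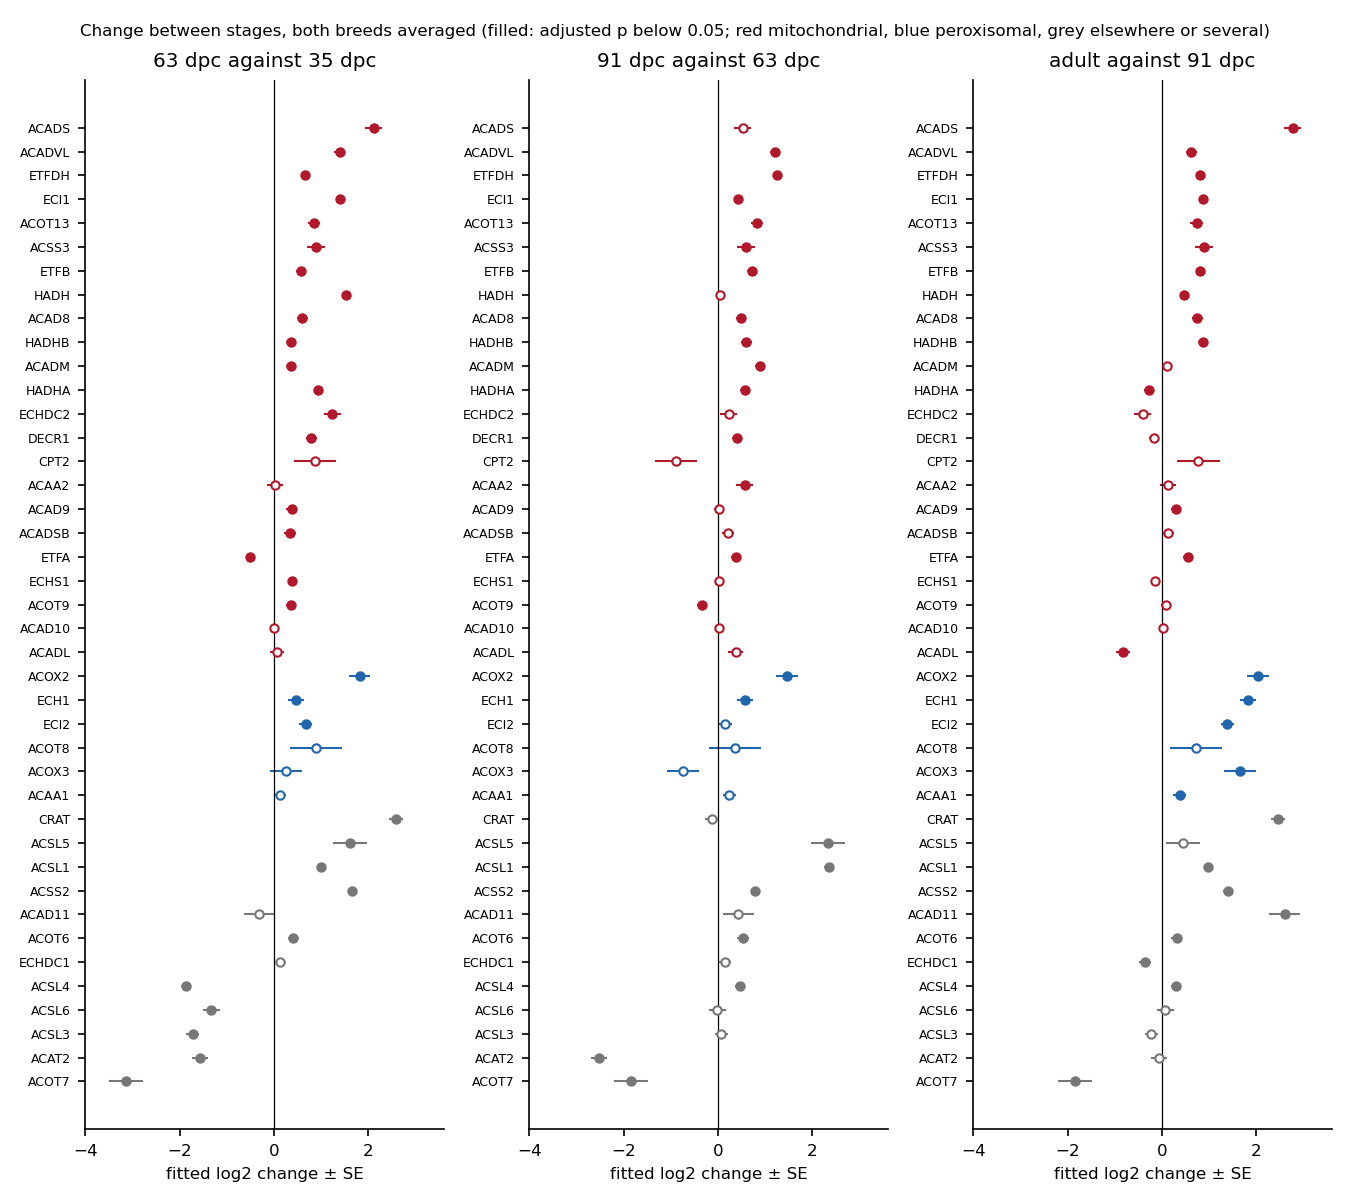
Each panel shows 1 step between stages, with the fitted log2 change on the horizontal axis, averaged over both breeds, and 1 gene per row. Bars are the standard error, and filled points passed an adjusted p of 0.05. At 63 against 35 dpc 26 points are called to the right and 6 to the left, at 91 against 63 dpc 20 and 3, and at adult against 91 dpc 23 and 4. When arrays were scaled to the hybridisation controls the first panel had 7 to the right and 19 to the left.

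The counts by enzyme family that follow stand beside array-wide shares of 22.3% called higher and 22% lower at 63 dpc, 8.88% and 9.4% at 91 dpc and 30.8% and 26.6% in adults.

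Of the 7 synthetases that activate fatty acids, 4 rose and 3 fell at 63 dpc, 5 rose at 91 dpc and 4 in adults, relative to the other probe sets. ACSL1, the main long-chain acyl-CoA synthetase of muscle, heart and fat, had a lowest, median and highest pool of 7.45, 7.76 and 7.96 at 35 dpc, 8.59, 8.65 and 8.98 at 63 dpc, 10.70, 11.05 and 11.30 at 91 dpc and 11.84, 12.08 and 12.21 in adults. No 2 stages overlapped. Its rises were 0.99 ± 0.09 (SE; limma, Benjamini-Hochberg adjusted p = 7.19e-08), 2.34 ± 0.09 (adjusted p = 7.06e-12) and 0.98 ± 0.09 (adjusted p = 4.53e-08), the second of these 5.05-fold. Scaled to the hybridisation controls, the step to 63 dpc was 0.17 and not called.

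ACSL5, a synthetase of the endoplasmic reticulum and outer mitochondrial membrane, was at background in 3 of the 6 pools at 35 dpc. Its lowest, median and highest pools were 2.13, 2.36 and 3.42 at 35 dpc, 3.78, 3.99 and 4.49 at 63 dpc, 5.82, 6.52 and 6.92 at 91 dpc and 4.44, 7.24 and 8.23 in adults. The fetal stages did not overlap, whereas the adult pools ran across the 91 dpc range. It rose by 1.61 ± 0.36 (adjusted p = 0.0011) and then by 2.33 ± 0.36 (adjusted p = 0.000118), and the adult step of 0.44 ± 0.36 was not called (adjusted p = 0.31). A second probe set gave 0.75 ± 0.20 (adjusted p = 0.00396), 0.52 ± 0.20 (adjusted p = 0.0783) and 1.21 ± 0.20 (adjusted p = 3.36e-05), so which of the later ACSL5 steps is called depends on the probe set, and the remaining probe set was not called in any step. Scaled to the hybridisation controls, the step to 63 dpc was 0.80 and missed the threshold.

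ACSL4, which prefers arachidonic acid, was highest at 35 dpc. It stood at 9.26 to 9.65 in the 35 dpc pools (median 9.53) and at 7.46 to 7.84 at 63 dpc (median 7.64), without overlap, and fell by 1.86 ± 0.11 (3.62-fold; adjusted p = 1.14e-10). It then rose by 0.46 ± 0.11 (adjusted p = 0.00567) and by 0.30 ± 0.11 (adjusted p = 0.0266), to 8.49 (median) in adults, both lost when scaled to the hybridisation controls (0.31 and 0.09). The second of these rises was also lost on leaving out any of DL 91 dpc pool c, DL adult pool c, Pi 91 dpc pools a or c or Pi adult pool a (adjusted p up to 0.0759). By breed it was 0.64 ± 0.15 in DL and -0.05 ± 0.15 in Pi (interaction -0.69 ± 0.22, adjusted p = 0.113, not called).

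The remaining long-chain synthetases moved with ACSL4 at the first step. ACSL3, found on the endoplasmic reticulum and lipid droplets, ran from 9.31 to 9.88 at 35 dpc and from 7.71 to 8.19 at 63 dpc, a change of -1.72 ± 0.14 (adjusted p = 9.47e-09). ACSL6, best known from brain, stood at 2.82 to 4.18 at 35 dpc and at background in all 18 later pools, so that it was at least 2.32-fold lower at 63 dpc (adjusted p = 5.25e-06). Neural markers summed to 15.23 or more in these same 35 dpc pools, and their part in the ACSL3, ACSL4 and ACSL6 values was not tested. Both acetyl-CoA and propionate activators gained: ACSS2, the cytosolic and nuclear acetyl-CoA synthetase, rose by 1.66 ± 0.10, 0.79 ± 0.10 and 1.39 ± 0.10 over the 3 steps (adjusted p = 1.98e-10, 1.77e-05 and 1.53e-09), and ACSS3, of mitochondria, by 0.88 ± 0.19, 0.59 ± 0.19 and 0.88 ± 0.19 (adjusted p = 0.000769, 0.0373 and 0.000606).

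CRAT, carnitine acetyltransferase, which buffers acetyl-CoA as acetylcarnitine, rose in the first and the last step. Its lowest, median and highest pools were 6.71, 7.27 and 7.60 at 35 dpc, 9.01, 9.88 and 10.24 at 63 dpc, 9.33, 9.65 and 10.03 at 91 dpc and 11.73, 12.12 and 12.44 in adults. The 63 and 91 dpc pools overlapped and the others did not. The rises were 2.58 ± 0.15 (5.97-fold; adjusted p = 1.51e-10) and 2.45 ± 0.15 (5.45-fold; adjusted p = 1.9e-10), on either side of a difference of -0.13 ± 0.15 (adjusted p = 0.715). CPT2, which regenerates acyl-CoA inside mitochondria, lay close to background, at or under the ceiling in some pools, with medians of 2.69, 3.64, 2.85 and 3.42 at the 4 stages. Its fitted steps of 0.87, -0.89 and 0.77, each ± 0.45, were not called (adjusted p = 0.132, 0.213 and 0.153).

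**Figure D3:**
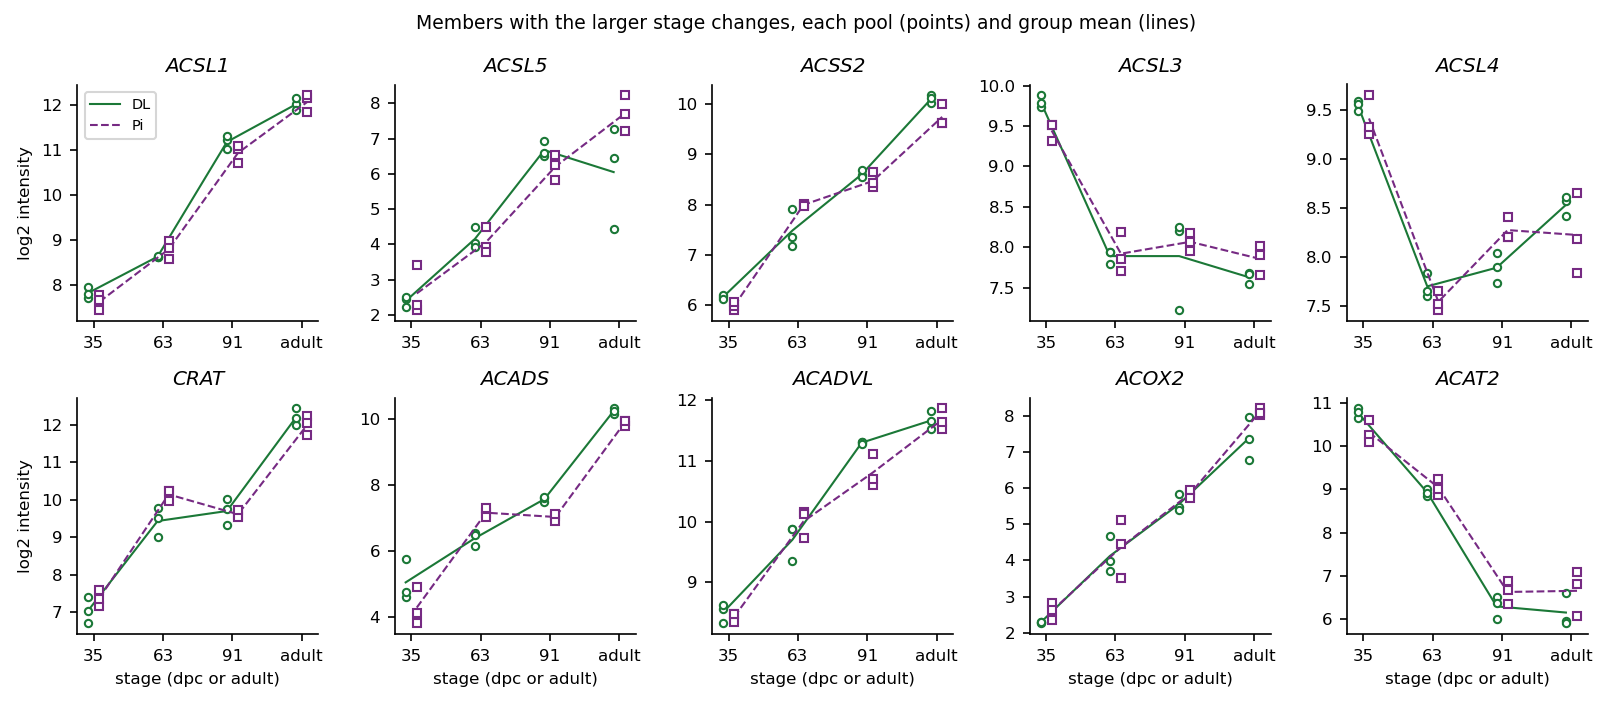
Log2 intensity of 10 genes against stage, with 1 point per pool (circles DL, squares Pi) and a line through the group means. Axes differ between panels and do not start at 0. ACSL1, ACSS2, CRAT, ACADS, ACADVL and ACOX2 end far above their 35 dpc values, ACSL3 and ACSL4 drop between 35 and 63 dpc, and ACAT2 drops until 91 dpc. ACSL5 in adult DL spreads from 4.44 to 7.27.

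Dehydrogenases and oxidases take the first step of oxidation, and of 11 such genes 7 rose and none fell at 63 dpc, 4 rose and none fell at 91 dpc, and 7 rose and 1 fell in adults. ACADS, the short-chain acyl-CoA dehydrogenase, had the largest adult rise of the 41 genes. Its lowest, median and highest pools were 3.80, 4.68 and 5.76 at 35 dpc, 6.15, 6.78 and 7.29 at 63 dpc, 6.90, 7.29 and 7.62 at 91 dpc and 9.76, 10.04 and 10.31 in adults. Only the 63 and 91 dpc pools overlapped. It rose by 2.11 ± 0.18 (4.31-fold, adjusted p = 1.9e-08) and by 2.77 ± 0.18 (6.80-fold, adjusted p = 2.75e-10), with 0.52 ± 0.18 between (adjusted p = 0.0518). The step between was 1.18 ± 0.25 in DL and -0.13 ± 0.25 in Pi (interaction -1.31 ± 0.36, adjusted p = 0.183, not called).

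ACADVL, which opens the oxidation of very long chains at the inner mitochondrial membrane, ran from 8.32 to 8.62 at 35 dpc, 9.35 to 10.16 at 63 dpc, 10.61 to 11.32 at 91 dpc and 11.53 to 11.87 in adults, without overlap. It rose by 1.39 ± 0.11 (adjusted p = 9.16e-09), 1.21 ± 0.11 (adjusted p = 4.07e-07) and 0.62 ± 0.11 (adjusted p = 0.000123). A second, dimmer ACADVL probe set gave 1.34, 0.37 (not called) and 2.58 over the same steps, so the size of its 91 dpc and adult steps, and the 91 dpc call, depend on the probe set.

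ACADM, for medium chains, rose by 0.36 ± 0.10 (adjusted p = 0.00756) and 0.89 ± 0.10 (adjusted p = 4.6e-06) before birth, from a median of 10.59 to 10.97 and 11.81, and its adult step of 0.10 ± 0.10 was not called (adjusted p = 0.413). The first ACADM step was 0.68 ± 0.14 in DL and 0.03 ± 0.14 in Pi (interaction -0.65 ± 0.20, adjusted p = 0.0992, not called). Scaled to hybridisation controls the averaged first step of ACADM was -0.46, below 0 like the median of all probe sets. ACADL, for long chains, stood at medians of 9.36, 9.64 and 9.79 before birth and at 8.84 in adults, where its pools ran from 8.18 to 10.22. It fell by 0.83 ± 0.15 (1.78-fold; adjusted p = 9.91e-05) between 91 dpc and the adult, with a step of -0.34 ± 0.21 in DL and -1.33 ± 0.21 in Pi.

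Of the dehydrogenases outside the classical chain, ACAD11, which acts on long acyl chains and is found in more than 1 compartment, had no called fetal step and an adult rise of 2.60 ± 0.33 (6.06-fold; adjusted p = 1.69e-06). Its pools ran from 3.10 to 6.37 over the 18 fetal pools and from 7.83 to 8.42 in adults, without overlap. With the GAPDH covariate that rise was 1.04 and not called. ACAD8 and ACADSB, which degrade valine and isoleucine, and ACAD9, also an assembly factor of respiratory complex I, rose at the first step by 0.60 ± 0.11 (adjusted p = 0.000229), 0.34 ± 0.13 (adjusted p = 0.0405) and 0.37 ± 0.11 (adjusted p = 0.0131). Second probe sets of ACAD8 and ACADSB were not called at that step (-0.06 and 0.13) and rose in adults by 2.18 and 1.04. The first ACAD9 step was 0.06 ± 0.16 in DL and 0.67 ± 0.16 in Pi (interaction 0.61 ± 0.23, adjusted p = 0.188, not called).

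Of the peroxisomal oxidases, ACOX2, which acts on branched chains and bile acid precursors, rose at each step by its brightest probe set. Its lowest, median and highest pools were 2.26, 2.32 and 2.81 at 35 dpc, 3.51, 4.22 and 5.12 at 63 dpc, 5.38, 5.78 and 5.94 at 91 dpc and 6.77, 7.99 and 8.20 in adults, without overlap. The 3 DL pools and 1 Pi pool at 35 dpc were at background, so the first fitted change of 1.81 ± 0.23 (adjusted p = 3.68e-06) is not exact. It was followed by 1.46 ± 0.23 (adjusted p = 0.000177) and 2.03 ± 0.23 (4.08-fold; adjusted p = 5.85e-07). A dimmer ACOX2 probe set, above background on 12 arrays, was not called in the fetal steps (0.18 and 0.59, adjusted p = 0.689 and 0.152) and rose by 2.91 ± 0.26 in adults (adjusted p = 2.68e-08), so the fetal rises depend on the probe set. ACOX2 is also a liver gene, and adult Pi pool b, rich in liver transcripts, held 8.20 against 8.01 and 8.07 in the other adult Pi pools. Without the 3 liver-rich pools the ACOX2 steps were 1.74, 1.52 and 2.0. ACOX3, also for branched chains, was called only in the adult step, by 1.66 ± 0.34 (adjusted p = 0.000435), from 3.51 to 7.69 at 91 dpc to 6.61 to 8.52, and these ranges overlap. The step was 2.85 ± 0.49 in DL and 0.47 ± 0.49 in Pi (interaction -2.38 ± 0.69, adjusted p = 0.0799). A dimmer ACOX3 probe set, above background on 6 arrays, was not called (0.20, adjusted p = 0.534).

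In the hydratase, isomerase and reductase group 6 of 7 genes rose at 63 dpc, 3 of 7 at 91 dpc and 3 of 7 in adults, where ECHDC1 fell. The array-wide shares called higher differ between these steps (22.3%, 8.88% and 30.8%), so the counts alone do not time the rise. ECI1, the mitochondrial enoyl-CoA isomerase for unsaturated fatty acids, rose at each step, by 1.40 ± 0.09 (adjusted p = 4.53e-10), 0.42 ± 0.09 (adjusted p = 0.00269) and 0.87 ± 0.09 (adjusted p = 1.77e-07). DECR1, the mitochondrial dienoyl-CoA reductase, rose before birth by 0.79 ± 0.11 (adjusted p = 8.5e-06) and 0.40 ± 0.11 (adjusted p = 0.0141) and stood at -0.17 ± 0.11 in the adult step (adjusted p = 0.203). Scaled to hybridisation controls the first DECR1 step was -0.02, and those of ECH1 and ECI2 were negative too. ECHS1, the main short-chain hydratase, and ECHDC2 rose at 63 dpc alone, by 0.37 ± 0.08 (adjusted p = 0.000765) and 1.23 ± 0.18 (adjusted p = 1.25e-05). ECHDC1, which removes faulty ethylmalonyl-CoA, fell by 0.36 ± 0.13 in adults (adjusted p = 0.0234), a call lost without DL adult pool c, Pi 91 dpc pool c or Pi adult pool c (adjusted p up to 0.0636).

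ECH1, a dienoyl-CoA isomerase carried to peroxisomes and mitochondria, had its main rise in adults. The lowest, median and highest ECH1 pools were 6.75, 7.46 and 7.88 at 35 dpc, 6.97, 7.95 and 8.24 at 63 dpc, 8.06, 8.46 and 8.58 at 91 dpc and 9.82, 10.17 and 10.78 in adults. The adult pools stood clear of all fetal pools. The adult rise was 1.83 ± 0.17 (3.56-fold; adjusted p = 3.42e-08), after 0.46 ± 0.17 (adjusted p = 0.0343) and 0.57 ± 0.17 (adjusted p = 0.0247). The first of these was 0.12 and not called without the 3 liver-rich pools, -0.35 when scaled to hybridisation controls, and was lost on leaving out any of 8 pools of 35 and 63 dpc: DL 35 dpc a or c, DL 63 dpc a or c, Pi 35 dpc b or c and Pi 63 dpc a or c (adjusted p up to 0.106). The second was lost without DL 63 dpc pool b, DL 91 dpc pool c, Pi 63 dpc pool b or Pi 91 dpc pools a or c (adjusted p up to 0.0679). ECI2, the isomerase found mainly in peroxisomes, rose by 0.67 ± 0.14 (adjusted p = 0.000632) and, in adults, by 1.38 ± 0.14 (2.61-fold; adjusted p = 1.16e-07), from 7.41 to 8.73 at 91 dpc to 9.17 to 9.70.

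The trifunctional protein joins the hydratase and hydroxyacyl dehydrogenase of HADHA to the thiolase of HADHB, and both subunit genes rose before birth. HADHA ran from 9.78 to 10.30 at 35 dpc, 10.73 to 11.16 at 63 dpc, 11.29 to 11.68 at 91 dpc and 10.68 to 11.70 in adults. The fetal stages did not overlap and the adult pools covered the ranges of both later fetal stages. It rose by 0.94 ± 0.10 (adjusted p = 2.16e-07) and 0.56 ± 0.10 (adjusted p = 0.000338) and then fell by 0.28 ± 0.10 (1.22-fold; adjusted p = 0.0185), with -0.03 ± 0.14 in DL and -0.53 ± 0.14 in Pi. HADHB ran from 9.66 to 9.93, 9.87 to 10.39, 10.23 to 11.26 and 11.17 to 12.14 over the same stages, with neighbouring stages overlapping at their edges. It rose by 0.36 ± 0.11 (adjusted p = 0.00993), 0.60 ± 0.11 (adjusted p = 0.000516) and 0.87 ± 0.11 (1.82-fold; adjusted p = 1.42e-06). Without the 3 liver-rich pools the first HADHB step was 0.33 and not called. All 3 HADHB probe sets were called higher in the adult step, by 0.58 to 0.87. At 91 dpc another HADHB probe set gave 0.37 ± 0.14 and was not called (adjusted p = 0.0761). The HADHA fall was lost without DL adult pool c, Pi 91 dpc pool c or Pi adult pool c (adjusted p up to 0.0593), with array weights and with the GAPDH covariate, and the difference between the 2 genes was not tested.

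HADH, the hydroxyacyl dehydrogenase for shorter chains, made most of its rise at once. It stood at 10.40 to 10.87 at 35 dpc, at 12.11 to 12.25 at 63 dpc, at 11.94 to 12.49 at 91 dpc and at 12.46 to 12.89 in adults. The change at 63 dpc was 1.52 ± 0.05 (2.87-fold; adjusted p = 7.29e-14), followed by 0.05 ± 0.05 (adjusted p = 0.661) and 0.47 ± 0.05 (adjusted p = 5.58e-07).

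Of the 3 thiolases, 1 fell at 63 dpc, 1 rose and 1 fell at 91 dpc and 1 rose in adults. ACAA2, the mitochondrial thiolase, was called in the 91 dpc step alone (0.56 ± 0.17, adjusted p = 0.027), with 0.01 and 0.13 in the other steps, and that call was lost when any of DL 63 dpc pool a, DL 91 dpc pools a or b, Pi 63 dpc pools a or c or Pi 91 dpc pool c was left out (adjusted p up to 0.0771). The 91 dpc step of ACAA2 was 0.90 ± 0.24 in DL and 0.22 ± 0.24 in Pi (interaction -0.67 ± 0.34, adjusted p = 0.623, not called). ACAA1, the peroxisomal thiolase, was called in the adult step alone (0.37 ± 0.13, adjusted p = 0.0241), from a median of 8.36 to 8.69, after 0.12 and 0.24. It was lost without DL 91 dpc pool c, DL adult pool a, Pi 91 dpc pool b or Pi adult pool b (adjusted p up to 0.0722), and was 0.28 and not called without the 3 liver-rich pools. ACAT2, the cytosolic thiolase that feeds cholesterol synthesis, fell from 10.09 to 10.88 at 35 dpc to 8.85 to 9.25 at 63 dpc and to 6.0 to 6.87 at 91 dpc, with no overlap. The falls were 1.56 ± 0.17 (2.95-fold; adjusted p = 3.49e-07) and 2.53 ± 0.17 (5.77-fold; adjusted p = 4.8e-09), and the adult pools, 5.90 to 7.08, did not differ from 91 dpc beyond their spread (-0.06 ± 0.17, adjusted p = 0.785).

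Of the 3 electron transfer genes, 2 rose at all 3 steps. ETFDH, which passes the electrons to ubiquinone, ran from 8.26 to 8.51, 8.83 to 9.13, 9.92 to 10.79 and 10.86 to 11.47 over the 4 stages, without overlap. It rose by 0.65 ± 0.09 (adjusted p = 4.07e-06), 1.25 ± 0.09 (adjusted p = 7.66e-09) and 0.80 ± 0.09 (adjusted p = 2.38e-07). ETFB, a flavoprotein subunit, rose by 0.57 ± 0.10 (adjusted p = 9.82e-05), 0.72 ± 0.10 (adjusted p = 3.3e-05) and 0.81 ± 0.10 (adjusted p = 1.19e-06). Its partner ETFA fell by 0.50 ± 0.10 at the first step (adjusted p = 0.000474), from a median of 10.94 to 10.47, and rose by 0.37 ± 0.10 (adjusted p = 0.0141) and 0.55 ± 0.10 (adjusted p = 0.000137) after it. The first ETFA step was -0.14 ± 0.14 in DL and -0.86 ± 0.14 in Pi (interaction -0.72 ± 0.20, adjusted p = 0.0639, not called). With hybridisation control scaling the first steps of ETFDH and ETFB were -0.16 and -0.24, above the median of all probe sets of -0.81 but below 0.

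Thioesterases, which release the free fatty acid, moved in both directions. ACOT7, a cytosolic thioesterase abundant in neurons, had the largest change of the 41 genes at 63 dpc. It stood at 9.66 to 10.28 at 35 dpc, 5.62 to 7.61 at 63 dpc, 3.70 to 5.44 at 91 dpc and 2.17 to 5.60 in adults, where the 3 DL pools were at background. It fell by 3.14 ± 0.36 (8.83-fold; adjusted p = 9.43e-07), 1.84 ± 0.36 (3.58-fold; adjusted p = 0.00126) and 1.85 ± 0.36 (adjusted p = 0.000258), the last value not being exact. Adult Pi pool b, the liver-rich pool, held 5.60 against 2.87 and 3.09 in the other adult Pi pools, and without the 3 liver-rich pools the adult step was -2.29. The neural marker sum dropped beside the ACOT7 values at 63 dpc, and its part was not tested.

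ACOT13, a mitochondria-associated thioesterase, rose at all 3 steps, by 0.84 ± 0.13 (adjusted p = 4.53e-05), 0.83 ± 0.13 (adjusted p = 0.000195) and 0.73 ± 0.13 (adjusted p = 0.000134). A dimmer ACOT13 probe set gave 0.82 ± 0.35 at 63 dpc, not called (adjusted p = 0.0689), and was called higher at the later steps (1.59 and 1.12). ACOT9, of mitochondria, rose by 0.36 ± 0.11 (adjusted p = 0.0135) and then fell by 0.34 ± 0.11 (adjusted p = 0.0394). ACOT8, of peroxisomes, was not called at any step (adjusted p = 0.228, 0.827 and 0.283), and its adult pools ran from 2.14 to 7.18. The 2 probe sets of ACOT6 were called in opposite directions at 91 dpc, the brighter by 0.53 ± 0.12 (adjusted p = 0.00447) and the dimmer by -1.25 ± 0.41 (adjusted p = 0.0442), so the ACOT6 direction there depends on the probe set. Its adult rise of 0.31 ± 0.12 (adjusted p = 0.0412) was lost without any of 7 pools, namely DL 91 dpc c, DL adult a or b, Pi 91 dpc a or b and Pi adult a or b (adjusted p up to 0.127).

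Mitochondrial and peroxisomal genes were compared over the 8 groups by the mean of each set, every gene first centred on its own mean over the 24 arrays. The mitochondrial mean was -0.82, -0.19, 0.39 and 0.85 in DL and -0.80, -0.08, 0.13 and 0.53 in Pi from 35 dpc to adult. The peroxisomal mean was -0.95, -0.48, -0.02 and 1.20 in DL and -1.11, -0.18, 0.04 and 1.48 in Pi. Before birth the means of both sets climbed side by side, and the larger part of the peroxisomal climb after 63 dpc came after 91 dpc. The fetal peroxisomal climb rests on few genes: 3 of 6 were called higher at 63 dpc and 2 at 91 dpc. ACOX2, whose fetal rises depend on the probe set, was called at both. The 17 other peroxisomal genes described below had medians of 0.00 and -0.08 in these steps.

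The mitochondrial minus the peroxisomal mean lay between 0.09 and 0.41 in the 6 fetal groups, with single pools from -0.05 to 0.76. In adult Pi the 3 pools stood at -0.99 to -0.92 (mean -0.96), below all fetal pools. In adult DL the mean was -0.36 with pools of -0.45, 0.33 and -0.94, so that pool b lay within the fetal range. DL adult pool b held ACOT8 at background (2.14). With ACOT8 left out, a choice made after seeing the data, the 3 adult DL pools were -0.92 to -0.23 and the adult Pi pools -1.07 to -0.71. The 63 dpc and 91 dpc steps changed the medians of both sets alike, with a mitochondrial minus peroxisomal difference of 0.04 and 0.12, whereas the adult step gave a median change of 0.47 for 23 mitochondrial and 1.52 for 6 peroxisomal genes, a difference of -1.05. Leaving out ECH1 and ECI2, which also reach mitochondria, gave -0.71, and taking the mean of all probe sets of a gene -0.66. With only 6 genes in the peroxisomal set these are descriptions, and a shift common to all probe sets of an array cancels in them.

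**Figure D4:**
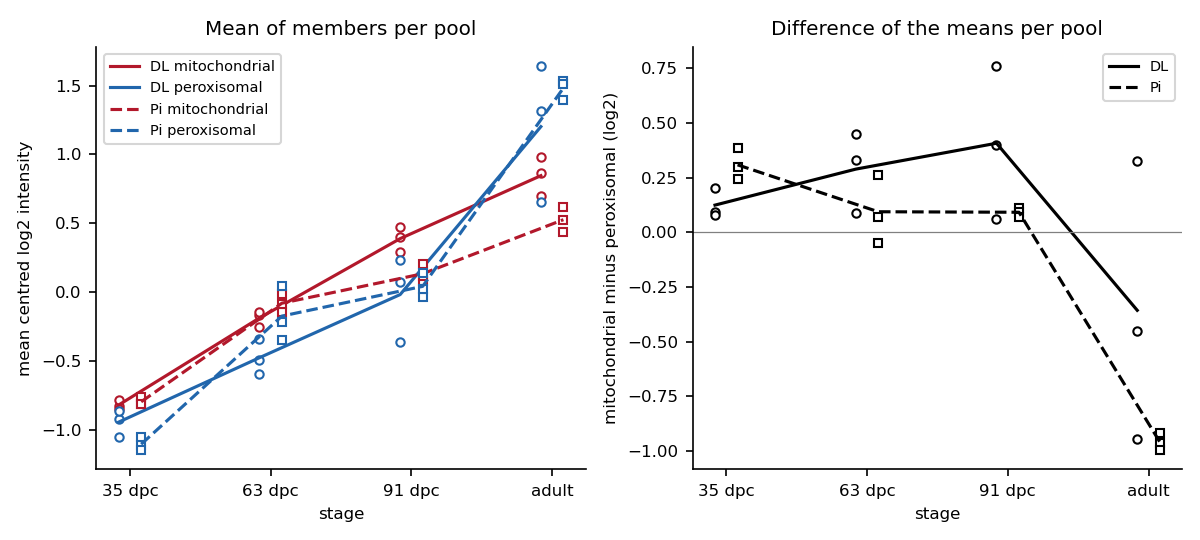
Left, the mean centred log2 intensity of the 23 mitochondrial (red) and 6 peroxisomal genes (blue) in each pool, with lines through the group means (DL solid and circles, Pi dashed and squares). Right, the mitochondrial minus the peroxisomal mean per pool. The adult Pi pools lie at -0.99 to -0.92, below all fetal pools, and the adult DL pools spread from -0.94 to 0.33.

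Other genes of fatty acid use, outside the naming rule, were taken from lists of known function, and their counts stand beside the same array-wide shares (22.3% higher and 22% lower, 8.88% and 9.4%, 30.8% and 26.6%). Of 11 measured genes of carnitine shuttle and uptake (18 listed), 5, 4 and 7 rose and 3, 1 and 1 fell over the 3 steps. CPT1B, the muscle gate of mitochondrial import, rose by 4.35 ± 0.22 at 63 dpc (adjusted p = 1.6e-11), LPL, which frees fatty acids from lipoproteins, by 1.85 ± 0.23 (adjusted p = 2.63e-06), and SLC27A1, a transporter, by 2.57 ± 0.52 in adults (adjusted p = 0.000362). Of 6 measured regulators (12 listed) 2, 2 and 4 rose and 2, 0 and 1 fell, with adult rises of 7.60 ± 0.24 for the uncoupling protein UCP3, 6.62 ± 0.30 for PDK4, which holds back glucose oxidation, and 2.07 ± 0.35 for the coactivator PPARGC1A (adjusted p = 1.04e-14, 1.53e-12 and 4.82e-05).

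Of 17 measured other peroxisomal genes (32 listed), 3 rose and 6 fell at 63 dpc, 2 rose and 1 fell at 91 dpc, and 12 rose and 3 fell in adults, with median changes of 0.00, -0.08 and 0.79. The list and its counts include ABCD4, a transporter taken for its ABCD family name and not itself placed in peroxisomes. ABCD4 rose by 1.83 ± 0.31 in adults (adjusted p = 5.3e-05). In the same step PEX19, a chaperone for peroxisomal membrane proteins, rose by 1.75 ± 0.27, and AMACR, a racemase for branched acyl-CoA, by 1.67 ± 0.28 (adjusted p = 1.63e-05 and 5.86e-05). Of 17 measured genes of the TCA cycle, which burns the acetyl-CoA formed, 12, 14 and 15 rose and 2, 0 and 1 fell, with medians of 0.36, 0.46 and 0.91. OGDH rose by 1.71 ± 0.14 at 63 dpc and 1.76 ± 0.14 in adults and IDH2 by 1.71 ± 0.11 in adults (adjusted p = 1.38e-08, 5.76e-09 and 1.61e-10).

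Breeds were compared at each stage as Pi minus DL. In adults 7 of the 41 genes were called, all lower in Pi and all mitochondrial, where 3.44% of all probe sets were called lower and 2.89% higher. The 7 are the dehydrogenases ACADL and ACADM, all 3 hydroxyacyl dehydrogenase genes HADH, HADHA and HADHB, the reductase DECR1 and the thiolase ACAA2. The median difference of the 23 mitochondrial genes was -0.37, and that of all probe sets -0.005. These calls lean on a spread pooled over all stages: 0 of the 41 were called when only the adult arrays were fitted, and 2 with array weights estimated per group.

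ACADL showed the largest of these differences. The DL pools held 9.62, 10.22 and 9.28 and the Pi pools 8.39, 8.18 and 8.39, a difference of -1.39 ± 0.21 (adjusted p = 0.00068). DECR1 held 9.29, 9.83 and 9.18 in DL and 8.42, 8.39 and 8.15 in Pi (-1.11 ± 0.15, adjusted p = 0.000315). The groups did not overlap for either gene, and in both the DL pool b was the highest.

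The trifunctional subunits were both lower in adult Pi. HADHA held 11.63, 11.70 and 11.35 in DL and 11.18, 10.79 and 10.68 in Pi (-0.68 ± 0.14, adjusted p = 0.00593). HADHB held 11.90, 12.14 and 11.75 in DL and 11.27, 11.42 and 11.17 in Pi (-0.64 ± 0.15, adjusted p = 0.0161). The HADHB call was lost without DL adult pool b or Pi adult pool c (adjusted p up to 0.0671). HADH held 12.87, 12.87 and 12.89 in DL against 12.46, 12.60 and 12.50 in Pi (-0.36 ± 0.08, adjusted p = 0.00914).

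ACADM held 12.18, 12.61 and 12.16 in DL and 11.76, 11.71 and 11.46 in Pi (-0.68 ± 0.14, adjusted p = 0.00833). ACAA2 held 10.27, 10.74 and 9.76 in DL and 9.42, 9.63 and 9.16 in Pi (-0.85 ± 0.24, adjusted p = 0.0419), and that call was lost on leaving out any of 13 of the 24 pools (adjusted p up to 0.163). No adult Pi pool reached a DL pool in any of the 7 genes. They were picked by this same comparison, so that separation adds no support, and the share of all probe sets so separated was not counted. Beside these values, adult muscle markers summed to 18.45 to 18.46 in DL and 18.40 to 18.42 in Pi, and adipocyte markers to 10.20 to 10.68 and 10.75 to 11.26. The only adipocyte marker called, PPARG, was higher in Pi (3.72 ± 0.49), while LEP was lower without a call (-1.56 ± 0.54). Liver markers summed to 10.00 to 11.21 in DL and to 9.04, 15.54 and 9.78 in Pi. In DL 6 of 9 liver markers exceeded background in all 3 pools, in Pi 1. The GAPDH difference was -0.46 to -0.39 in DL and -0.61 to -0.55 in Pi. The part of these was not tested beyond the fits that follow. With the GAPDH covariate 11 genes were called, and without the 3 liver-rich pools 9. In limma the 6 peroxisomal genes gave 0 calls between adult breeds (1 at an unadjusted p below 0.05), with a median of 0.20, other peroxisomal genes 2 of 17 lower and none higher, with a median of -0.01 (SCP2, a lipid carrier and thiolase, at -0.75 ± 0.10, adjusted p = 0.000343, and PHYH, which starts phytanic acid breakdown, at -0.95 ± 0.17, adjusted p = 0.00259), and TCA cycle genes 2 of 17 lower and none higher, with a median of -0.28.

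**Figure D5:**
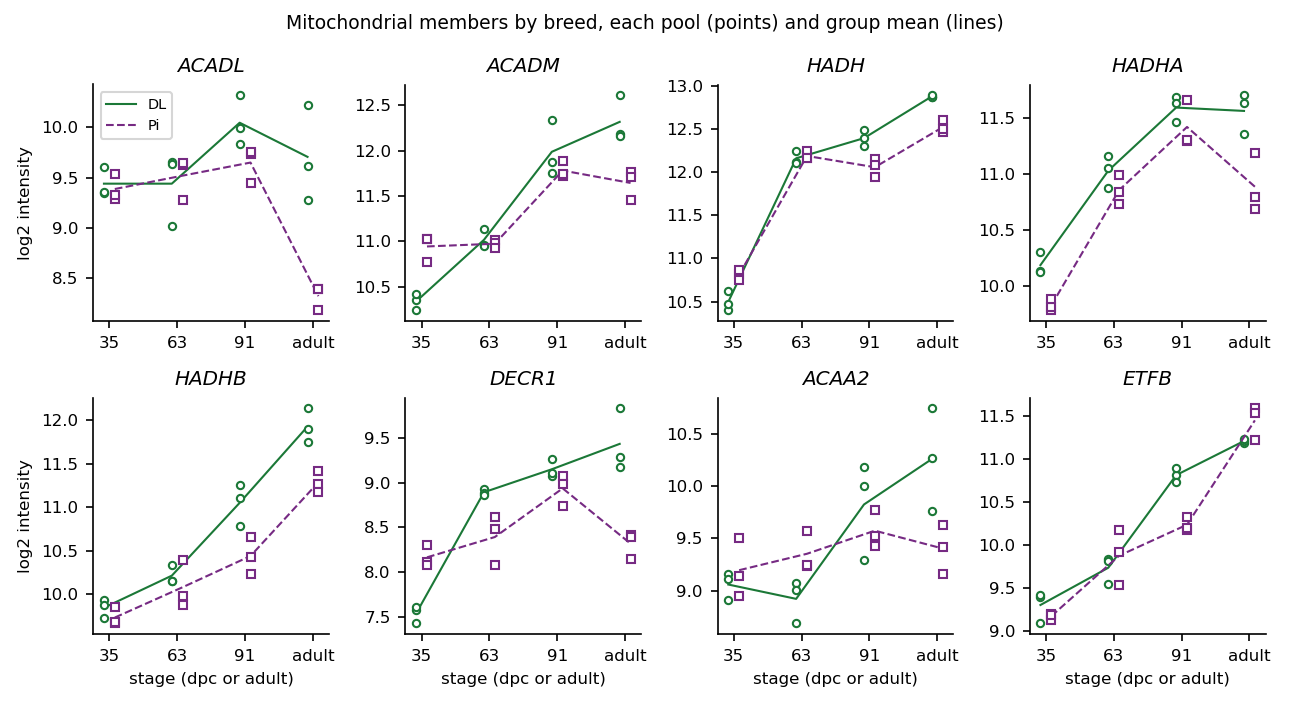
Log2 intensity of 8 mitochondrial genes against stage, with 1 point per pool (circles DL, squares Pi) and a line through the group means. Axes differ between panels and do not start at 0. In the 7 panels of genes picked because they were called between adult breeds, the 3 adult Pi pools lie below the 3 adult DL pools. In the panel of ETFB, called at 91 dpc, the breeds meet again in adults.

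At 91 dpc 6 of the 41 genes were called, 1 higher in Pi, where 1.35% of all probe sets were called higher, and 5 lower, where 1.38% were called lower. ACOX3 was the higher gene, with 3.51, 5.03 and 5.41 in DL and 7.35, 7.69 and 7.45 in Pi, no overlap and a difference of 2.85 ± 0.49 (adjusted p = 0.00406). ECI2 held 8.73, 8.61 and 8.35 in DL and 7.71, 7.49 and 7.41 in Pi (-1.03 ± 0.20, adjusted p = 0.00951), but the mean over both ECI2 probe sets gave 0.47, so the direction depends on the probe set. ECI2 was also lost without DL 91 dpc pool a (adjusted p = 0.0511).

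The other genes lower in Pi at 91 dpc were mitochondrial. ETFB held 10.81, 10.90 and 10.73 in DL and 10.18, 10.33 and 10.20 in Pi (-0.58 ± 0.14, adjusted p = 0.0321). HADHB held 11.11, 11.26 and 10.78 in DL and 10.66, 10.23 and 10.42 in Pi (-0.61 ± 0.15, adjusted p = 0.0375). HADH held 12.49, 12.39 and 12.30 in DL and 12.15, 12.08 and 11.94 in Pi (-0.33 ± 0.08, adjusted p = 0.0239). None of these 3, picked by this same comparison, overlapped between breeds, which adds no support to their calls.

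ETFA held 11.07, 11.40 and 10.69 in DL and 10.43, 10.43 and 10.64 in Pi (-0.56 ± 0.14, adjusted p = 0.0459), and was lost on leaving out any of 18 of the 24 pools. HADH was lost without DL 91 dpc pools a or b or Pi 91 dpc pools b or c, HADHB without DL 91 dpc pools a or b or Pi 91 dpc pools b or c, and ETFB without those 4 or Pi 91 dpc pool a (adjusted p up to 0.189). Fitted on the 91 dpc arrays alone, 0 of the 41 genes were called, and 0 with the GAPDH covariate, whose values were 0.25 to 1.16 in DL and 0.84 to 1.31 in Pi. The 6 calls became 1 without DL 91 dpc pool a and 2 without DL 91 dpc pool b or Pi 91 dpc pool b.

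At 35 dpc 5 genes were called, 3 higher in Pi, where 1.61% of all probe sets were called higher, and 2 lower, where 2.41% were called lower. ACADM held 10.35, 10.24 and 10.42 in DL and 11.03, 10.77 and 11.03 in Pi (0.61 ± 0.14, adjusted p = 0.0212). DECR1 held 7.58, 7.61 and 7.43 in DL and 8.12, 8.08 and 8.30 in Pi (0.63 ± 0.15, adjusted p = 0.0279). HADH held 10.40, 10.62 and 10.47 in DL and 10.82, 10.75 and 10.87 in Pi (0.32 ± 0.08, adjusted p = 0.0247). The same 3 genes were called lower in adult Pi muscle.

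ECH1 held 7.79, 7.88 and 7.79 in DL and 7.13, 6.81 and 6.75 in Pi (-0.92 ± 0.24, adjusted p = 0.037). ACOT6 held 9.10, 9.18 and 9.15 in DL and 8.56, 8.24 and 8.37 in Pi (-0.75 ± 0.17, adjusted p = 0.0188). None of the 5 overlapped between breeds, but they were picked by this same comparison, so that adds no support. In the same comparison 6 of 9 skeletal muscle markers were called lower in Pi and none higher, with a median of -0.60 (CKM at -1.03 and ATP2A1 at -1.19), and the marker sum was 15.67 to 15.78 in DL and 15.46 to 15.60 in Pi. The part of these markers in the 5 differences was not tested. Fitted on the 35 dpc arrays alone, 5 of the 41 genes were called too. Under hybridisation control scaling the array-wide median of this comparison was 0.51 and 14 genes were called, and with the GAPDH covariate, 0.52 to 0.80 in DL and 1.08 to 1.21 in Pi, 2 were called. The count was 0 without DL pool a or Pi pool c of 35 dpc, 1 without DL pools b or c and 3 without Pi pools a or b.

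At 63 dpc limma called 0 of the 41 genes, where 0.671% of all probe sets were called higher and 0.7% lower in Pi. Of the 41, 13 had an unadjusted p below 0.05 in limma. The share of all probe sets at that unadjusted level was not counted in any comparison. Array weights gave 4 calls, the mean of all probe sets of a gene 1, and leaving out a pool up to 3, that without DL 63 dpc pool b. ACOX3 had the lowest adjusted p of the 41, with 6.10, 5.90 and 5.57 in DL and 7.78, 7.59 and 7.96 in Pi (1.92 ± 0.49, adjusted p = 0.06).

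Whether the breeds differed in a step itself was tested as an interaction, the Pi step minus the DL step. At 63 against 35 dpc 5 of the 41 genes were called, where 3.3% of all probe sets were called in either direction, at 91 against 63 dpc 0, where 0.0917% were called, and at adult against 91 dpc 3, where 2.66% were called. In the middle step 14 genes had an unadjusted p below 0.05 in limma, and 1 gene was called when DL 63 dpc pool b was left out. How many of all probe sets reached that unadjusted level was not counted, so the 14 have no share to stand beside. DECR1 was called in both outer steps. From 35 to 63 dpc it rose by 1.35 ± 0.15 in DL and 0.23 ± 0.15 in Pi, an interaction of -1.12 ± 0.22 (adjusted p = 0.00834). From 91 dpc to the adult it changed by 0.28 ± 0.15 in DL and -0.62 ± 0.15 in Pi, an interaction of -0.90 ± 0.22 (adjusted p = 0.0356). Without the 3 liver-rich pools both DECR1 interactions kept their size, -1.12 and -0.93, and were not called (adjusted p = 0.0934 and 0.06). The other calls were ACADS, ACOT6, ECH1 and ECI2 in the first step and ECHDC1 and ETFB in the adult step. In the first step 5 of 9 skeletal muscle markers also had a called interaction, all higher in Pi, with a median of 0.65, and their part was not tested. Without the 3 liver-rich pools 2 of the first and 1 of the adult-step calls were made. The first count was also 2 without Pi pool c of 35 or of 63 dpc, and 3 without DL 35 dpc pools a or c, DL 63 dpc pool a, Pi 35 dpc pool b or Pi 63 dpc pools a or b. The adult count was 0 without DL 91 dpc pools a or b, Pi 91 dpc pools b or c or Pi adult pool c, and 1 without DL adult pool a or Pi 91 dpc pool a.

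No adult-step interaction was called with the adult and 91 dpc arrays alone, with array weights, with the GAPDH covariate, with the pool letter as a block or with hybridisation control scaling. The interactions of ACADL (-0.99 ± 0.30, adjusted p = 0.0922) and HADHA (-0.51 ± 0.19, adjusted p = 0.195) were not called in limma, so the adult breed difference in these 2 genes is not shown to arise after 91 dpc.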

How the data were processed

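The authors hybridised labelled RNA pools to Affymetrix Porcine Genome Arrays and scanned them with GCOS 1.1.1, per the submitters' processing notes. The deposited values are log2 intensities per probe set, with the log base taken from their range (1.60 to 16.10). All 24 columns hold the same sorted values (median 5.43), so the authors had quantile-normalised them; background correction and summarisation were not given in the sources used here.

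Gene symbols came from the platform annotation: 10069 probe sets carried 1 symbol, 198 several and 13732 none, and none was named from a probe set with several. All 41 genes' Entrez IDs were found in RefSeq's current table with the same symbol. After leaving out 124 control probe sets, limma 3.58.1 in R 4.3.3 fitted 8 group means to all 24 arrays (16 residual and 1.31 prior degrees of freedom). Tests were two-sided, with Benjamini-Hochberg adjustment over 23999 probe sets in each of 10 comparisons and a threshold of 0.05. The value after ± is the standard error. The number of arrays limits the precision. A probe set at or under the highest no-target control of an array (2.31 to 2.69) was taken as at background, and a fold against a group at background is a lower bound. The fit was tested on simulated data with 1 spread per probe set for all groups. Of added log2 changes of 1 it recovered 54.5% to 57.5% in the stage steps and 37% between adult breeds. Of changes of 2 it recovered 88.5% to 91.5% and 72.5%. A change that was not called may therefore still be present. Figures were drawn with Python 3.11.15 and matplotlib 3.10.9.

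The members, lists and tests were chosen with earlier results of these data known. Values were given for the 4 largest called changes of each step, up to 6 genes called in each breed comparison and interaction, genes with probe sets called in opposite directions, and a panel of well-known enzymes; list genes were the 3 with the largest changes. Other members, SCP2, PHYH and marker genes were named after their values were seen, to complete the families or counts. Pools of the same letter showed little shared deviation (median correlations -0.008 to 0.001, highest 0.091), so the letters were not used to pair pools in the main fit. The labels do not say whether they pair pools, and pairing between particular groups is not excluded. The alternatives tried were scaling to 27 hybridisation controls, a background filter that kept 19458 probe sets, only the stages compared, the mean of a gene's probe sets, trended robust variances, array weights, the pool letter as a block, the GAPDH 3'-5' difference as a covariate, other peroxisomal sets and leaving out pools.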

Additional observations from a re-analysis of the deposited data

Results flagged for a closer look

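In 8 cases the step between stages differed between the breeds by the interaction test in limma (adjusted p below 0.05 over all probe sets). From 35 to 63 dpc ACADS rose by 2.87 in Pi and 1.34 in DL, an interaction of 1.53 ± 0.36 (adjusted p = 0.0262). ACOT6 changed by 0.98 in Pi and -0.16 in DL, an interaction of 1.14 ± 0.25 (adjusted p = 0.0159), and ECH1 by 1.1 and -0.18, an interaction of 1.27 ± 0.34 (adjusted p = 0.0481). DECR1 went the other way, 0.23 in Pi and 1.35 in DL (-1.12 ± 0.22, adjusted p = 0.00834), as did ECI2, 0.11 in Pi and 1.24 in DL (-1.13 ± 0.28, adjusted p = 0.034). In this interaction 5 of 9 skeletal muscle markers were called higher and none lower, with a median of 0.65, the direction of ACADS, ACOT6 and ECH1, and their part was not tested. The mean over both ECI2 probe sets gave an interaction of 0.25 in the opposite direction.

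From 91 dpc to the adult DECR1 changed by -0.62 in Pi and 0.28 in DL (-0.90 ± 0.22, adjusted p = 0.0356), and ECHDC1 by -0.87 and 0.14 (-1.01 ± 0.26, adjusted p = 0.0455). ECHDC1 pools were 7.70, 7.63 and 7.66 in DL and 8.15, 8.18 and 8.30 in Pi at 91 dpc, and 8.0, 7.84 and 7.58 against 7.31, 7.54 and 7.18 in adults, so the order of the breeds turned. ETFB rose by 1.21 in Pi and 0.40 in DL (0.82 ± 0.20, adjusted p = 0.0334). Leaving out 1 pool ended the ECH1 and ECHDC1 calls in 18 of 24 cases each, ETFB in 9, ECI2 in 8, DECR1 in 7 of the adult step and ACADS in 5.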

How the results depend on the processing

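Gene by gene, only the genes chosen by the stated rule for giving values were checked. The calls of ACAD8, ACAD9, ACADSB, ACOT9, ACOT13, ACSL3, ACSL6, ACSS2, ACSS3, ECHDC2, ECHS1 and ECI1 were not, so their stability is not known. Of the 84 called gene results checked, 58 kept their call when any 1 pool was left out and none changed sign that way, while 13 changed sign under another setting. Scaling to the hybridisation controls gave 7 genes higher and 19 lower at 63 against 35 dpc, 11 higher at 91 dpc and 8 lower in adults, breed counts of 14 at 35 dpc, 14 at 91 dpc and 12 in adults, and 9 and 0 interactions in the first and adult step. Among the genes checked, the sign then turned at 63 dpc for ACADM (-0.46), ACOT6 (-0.40), DECR1 (-0.02), ECH1 (-0.35), ECI2 (-0.14), ETFB (-0.24), ETFDH (-0.16) and HADHB (-0.45), where the median of all probe sets was -0.81. The GAPDH covariate left 7 higher and 0 lower in adults, 2, 0 and 11 breed calls at 35 dpc, 91 dpc and in adults, no adult-step interaction (0), adult steps of -0.21 for ACOT6 and -0.15 for ETFA, and a mitochondrial minus peroxisomal change of -1.49. Array weights gave 2 lower in adults, 9, 4 and 2 breed calls at 35 dpc, 63 dpc and in adults, and 9 and 0 interactions. Fits of only the stages compared gave 0 breed calls at 91 dpc, 0 in adults and 0 adult-step interactions; the background filter gave 3 breed calls at 91 dpc. The mean of all probe sets gave 1 breed call at 63 dpc, a mitochondrial minus peroxisomal adult change of -0.66, ACOT6 at -0.36 in the 91 dpc step, and ECI2 at 0.47 between breeds at 91 dpc and 0.25 in the interaction. Leaving ECH1 and ECI2 out of the peroxisomal set gave -0.71. With the pool letter as a replicate block, 0 adult-step interactions were called, and 25, 20 and 23 genes were higher over the 3 steps; 6 of 24 arrays were closest to one of their own letter. Chosen after seeing the data, the set without ACOT8 gave -1.18, and the fit without the 3 liver-rich pools 2 and 1 interactions in the first and adult step. The cause of these changes was not tested. Shares of all probe sets called are given for the main fit alone, so counts under the other settings have none beside them. Leaving out 1 pool gave 24 to 27, 17 to 21 and 20 to 23 genes higher and 6 to 6, 2 to 3 and 2 to 5 lower over the 3 steps, 0 to 6, 0 to 3, 1 to 9 and 6 to 11 breed calls from 35 dpc to adult, the 11 without DL 91 dpc pool c, and 2 to 6, 0 to 1 and 0 to 4 interactions. The mitochondrial minus peroxisomal change then ran from 0.00 to 0.08, 0.00 to 0.23 (0.00 without DL 91 dpc pool a) and -1.15 to -0.90. With 3 pools a group, CPT2, ACOT8 and ACAD10, near background, had the least signal to show a change.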
